A study of Mus musculus with 12 samples.

Results

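Mouse pluripotent stem cells that had lost both Lin28a and Lin28b were compared with cells that had lost Lin28b alone, so that the 2 groups differ, by their labels, in Lin28a. The comparison takes 6 of the 12 arrays of the series: 3 labelled loss of function of lin28a and b, called double loss here, and 3 labelled loss of function of lin28b, called Lin28b loss. Both groups therefore share the loss of Lin28b, and both were hybridised on 1 Illumina WG-6 BeadChip. The other 6 arrays, 3 of Lin28a loss and 3 of wild type on another chip, entered the normalization and the estimate of the spread. The titles name 1 cell line for each genotype, so line and genotype cannot be told apart. Whether the replicates were separate cultures is not given in the sources used here, and the p-values then measure only the spread between these samples, which may be technical. The tissue label reads embryonic stem cells and the design text calls the controls iPS cells, and the cultures were kept in serum and Lif. How the genes were inactivated is not given in the sources used here.

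Lin28a and Lin28b are RNA-binding proteins with a cold-shock domain and zinc knuckles. Lin28a acts mainly in the cytoplasm, where it binds the loop of let-7 precursors and recruits a terminal uridylyl transferase that marks them for decay, and both paralogs keep let-7 from maturing. They also bind many messenger RNAs and affect their translation. Pluripotent cells hold Lin28a at high levels and mature let-7 at low levels, and let-7 represses growth and cell cycle genes through its seed. The mature sequences of 6 members of the family show the seed, bases 2 to 8, in capitals (RefSeq, GRCm38.p6).
let-7a: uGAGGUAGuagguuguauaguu
let-7d: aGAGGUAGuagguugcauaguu
let-7e: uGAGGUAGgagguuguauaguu
let-7g: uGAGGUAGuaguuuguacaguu
let-7i: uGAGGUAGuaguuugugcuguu
miR-98: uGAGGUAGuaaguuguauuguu
Mature let-7a lies at chr13:48538239-48538260 (minus strand, from Mirlet7a-1), let-7d at chr13:48536078-48536099 (minus), let-7e at chr17:17830366-17830387 (plus), let-7g at chr9:106178846-106178867 (plus), let-7i at chr10:122985698-122985719 (minus) and miR-98 at chrX:151913229-151913250 (plus). All 9 let-7 family members on the 5p arm in the RefSeq table carry this seed. The arrays measure messenger RNA and gave no let-7 level.

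The deposited table gives a mean bead intensity and a detection p for each of 30854 genes. A gene counts as above background where its detection p is under 0.01, and a gene was tested where this held on all 3 arrays of either group. Values are log2 intensities after background correction and quantile normalization, and a difference is double loss minus Lin28b loss with its standard error (SE, n = 3 arrays per group throughout). "Rose" and "fell" are used of genes with a limma adjusted p under 0.05. Genes above background on no array of 1 group are given as "at least N-fold", against the weakest signals above background on those arrays. Those weakest signals are of genes with 1 probe. Klhl26 and Egln3, whose undetected signals lay over them, have no bound. The mean raw signal of the 6 arrays lay between 325.4 and 476.5, with 9393 to 10319 genes detected above background on each. Double-loss array 1 was the brightest of the 6 and received the lowest weight among them, 0.231, when arrays were weighted by their fit, and for some genes it stood apart from the other double-loss arrays. All 10 pluripotency markers checked, Pou5f1, Nanog and Sox2 among them, were above background on every array of both groups, with summed linear signals of 54921 to 59240 in double loss and 50550 to 51819 in Lin28b loss. Of 8 fibroblast markers, collagens and Thy1 among them, none was above background on any of the 6 arrays. Of 8 trophoblast markers 3 were above background on all double-loss arrays and 5 on all Lin28b-loss arrays, with sums of 716 to 803 and 1168 to 1294. In a culture, fewer cells of a type and less RNA per cell cannot be told apart. Of 6 mesoderm markers 0 and 1 were above background on all arrays of double loss and Lin28b loss.

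Lin28a itself was measured on every array. Its log2 intensity was 5.29, 5.55 and 5.60 in double loss, against 6.84, 7.06 and 7.19 in Lin28b loss. The groups did not overlap, and Lin28a fell by 1.55 ± 0.11 on the log2 scale, a 2.92-fold lower signal in double loss (adjusted p = 6.1e-07). All 3 double-loss arrays were still above background for Lin28a, and which part of the transcript the probes read is not given in the sources used here. Lin28b had 2 entries in the table, and neither was above background on any array of the series, so its loss in both groups could not be checked. Of 13 measured genes of let-7 and microRNA processing, Lin28a fell and none rose. Dicer1, Drosha, Dgcr8 and Xpo5, which cut and export microRNA precursors, and Dis3l2, the nuclease that degrades uridylated pre-let-7, were not called. Trim71, a let-7 target and RNA-binding ubiquitin ligase, gave 9.95, 9.76 and 9.87 in double loss and 10.22, 10.13 and 9.99 in Lin28b loss (difference -0.25 ± 0.10, adjusted p = 0.0724).

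Of 9185 tested genes 3478 differed, 37.9% of them, with 1590 higher (17.3%) and 1888 lower (20.6%) in double loss. A difference of at least 2-fold was reached by 469 genes (5.11%), 226 higher (2.46%) and 243 lower (2.65%). These shares are the level against which the gene groups below are read. The median difference of all tested genes was -0.02. It was 0.09 when arrays were scaled by their medians instead of quantile normalized, and then 1203 genes differed, 622 higher and 581 lower, so the counts of many groups are smaller under that scaling. Of 257 called members of the gene lists 169 were not called under that scaling, and those described below are Acta2, Ankrd37, Arid3b, Aurka, Bmp4, Cbx7, Cdh1, Chac1, Cldn4, Ddb2, Dnmt3b, E2f1, Ebp, Etv5, Evx1, Fzd10, Gpt2, Gpx3, Herpud1, Hmox1, Hsp90ab1, Igf2, Insr, Irf1, Klf2, Klf4, Krt8, Lamc1, Lefty2, Mest, Mvd, Myh9, Ndufb5, Nes, Nodal, Otx2, P4ha1, Pdia4, Pdk1, Pfkm, Piwil2, Pold3, Pole, Porcn, Slc2a1, Smad1, Smad2, Smad5, Sox2, Syce3, Taf7l, Tdgf1, Timm44 and Zscan4c. Without double-loss array 1, 3103 genes differed.

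**Figure D1:**
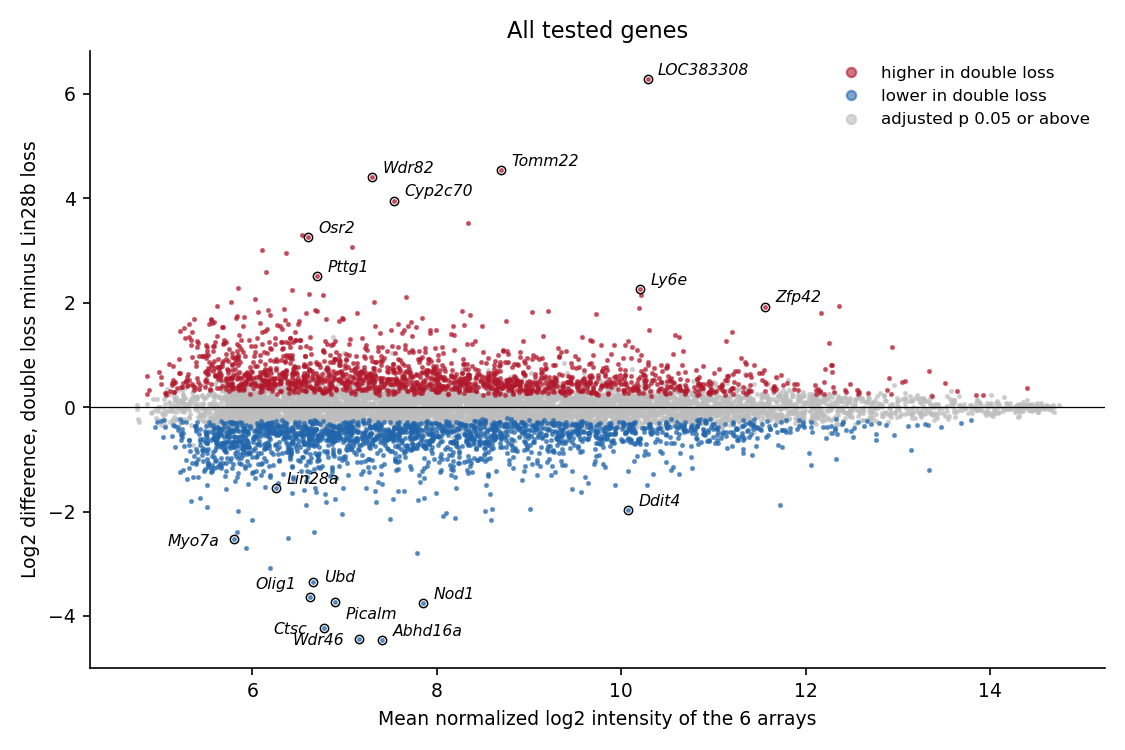
Log2 difference of each tested gene, double loss minus Lin28b loss, against its mean normalized log2 intensity over the 6 arrays, with genes higher in double loss in red, lower in blue and not called in grey. Most called genes lie within 1 log2 unit of 0, and the circled genes are some of those named in the text.

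The largest rise among named genes was that of Tomm22, the central receptor of the import pore in the outer mitochondrial membrane. Tomm22 read 10.98, 10.93 and 11 in double loss, against 6.48, 6.49 and 6.30 in Lin28b loss, a difference of 4.54 ± 0.09 (23.3-fold, adjusted p = 5.4e-12). It was above background on all 6 arrays. Wdr82, a subunit of the complex that methylates histone H3 lysine 4 at promoters, was at least 14.6-fold higher by its brighter entry, with 9.70, 9.39 and 9.40 in double loss and 5.14, 5.09 and 5.06 in Lin28b loss. The other entry of Wdr82 went the opposite way, with 7.23, 7.11 and 7.18 in double loss and 7.36, 7.55 and 7.64 in Lin28b loss, so no direction is settled for this gene. The miRNA gene of let-7g lies inside Wdr82 in the RefSeq annotation.

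Other large rises were those of enzymes, secreted proteins and transcription factors. Cyp2c70, a cytochrome P450 of bile acid synthesis in mouse liver, gave 9.52, 9.53 and 9.47 in double loss and 5.65, 5.53 and 5.49 in Lin28b loss (3.95 ± 0.13, 15.5-fold, adjusted p = 5.9e-10). Osr2, a zinc finger factor of palate and limb development, was at least 6.07-fold higher by 1 entry, while its other entry was above background in neither group. Lars2, which charges leucine tRNA in mitochondria, was at least 4.63-fold higher, with 7.86, 7.82 and 7.83 in double loss and 5.02, 4.64 and 5.03 in Lin28b loss. Pnp2, a purine nucleoside phosphorylase, was at least 5.89-fold higher, and Spink10, a protease inhibitor by its family, at least 3.97-fold. Each of these genes was above background on all 3 double-loss arrays, and apart from Cyp2c70, which passed on 1 Lin28b-loss array, on none of Lin28b loss.

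Pttg1, or securin, which holds separase inactive until anaphase, read 8.03, 7.90 and 7.97 in double loss and 5.26, 5.17 and 5.93 in Lin28b loss (2.51 ± 0.17, adjusted p = 2.8e-07). Cited4, a cofactor that binds p300, was at least 3.77-fold higher, and Ube2cbp, a ubiquitin ligase, at least 3.51-fold. Brightly expressed rises included Myl4, a myosin light chain of embryonic muscle, at 11.20, 11.35 and 11.34 in double loss and 9.45, 9.14 and 8.83 in Lin28b loss (2.15 ± 0.14). Sdc2, a heparan sulfate proteoglycan of the cell surface, gave 8.70, 8.74 and 8.72 in double loss and 6.71, 6.70 and 6.44 in Lin28b loss (2.11 ± 0.09), and Nppb, the natriuretic peptide, rose by 2.17 ± 0.14. An entry without a current gene name, LOC383308, had the largest difference of all tested genes and was named after its values were seen. It gave 13.4, 13.39 and 13.5 in double loss and 7.23, 7.30 and 6.90 in Lin28b loss (6.29 ± 0.10).

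Among the largest falls were several genes at background in double loss. Abhd16a, a lipase that makes lysophosphatidylserine, gave 5.02, 5.02 and 5.52 in double loss and 9.68, 9.63 and 9.61 in Lin28b loss, at least 16.1-fold lower (adjusted p = 4.75e-10). Wdr46, a nucleolar factor of ribosome assembly, gave 5.12, 4.81 and 4.90 in double loss and 9.23, 9.39 and 9.52 in Lin28b loss, at least 13.4-fold lower (adjusted p = 2.58e-10). Ctsc, the lysosomal dipeptidyl peptidase that activates granule proteases, gave 4.89, 4.60 and 4.51 in double loss, with 1 array above background, and 9.0, 8.79 and 8.88 in Lin28b loss (-4.22 ± 0.12, adjusted p = 1.6e-10). The groups did not overlap for any of these 3 genes. Picalm, an adaptor of clathrin-mediated endocytosis, was at least 8.78-fold lower, with 5.20, 4.92 and 4.97 in double loss and 8.67, 8.84 and 8.79 in Lin28b loss. Olig1, a basic helix-loop-helix factor of oligodendrocytes, was at least 7.0-fold lower, and Ubd, a ubiquitin-like modifier induced by interferon gamma, at least 6.46-fold. Nod1, which senses bacterial peptidoglycan, stayed above background on all 6 arrays, at 5.96, 6.04 and 5.94 in double loss and 9.65, 9.75 and 9.80 in Lin28b loss (-3.75 ± 0.13, 13.5-fold lower).

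Smaller falls of the same kind included Gpatch4, a G-patch protein, at least 4.26-fold lower. Klhl26, a kelch protein, gave 6.20, 6.52 and 6.44 in double loss and 9.24, 9.17 and 9.11 in Lin28b loss. Its undetected signals in double loss lay over the weakest ones above background there, so its fitted 6.90-fold fall is no bound. Pak1, a kinase activated by Rac and Cdc42, was at least 4.02-fold lower, Calr4, of the calreticulin family, at least 3.13-fold, Myo7a, an unconventional myosin, at least 2.71-fold, and Enpp5, an ectonucleotidase by its family, at least 2.63-fold. These 6 genes were above background on all 3 Lin28b-loss arrays and on no double-loss array. Srpr, the receptor that docks ribosomes carrying the signal recognition particle, was above background throughout and gave 7.60, 7.49 and 7.44 in double loss and 9.63, 9.66 and 9.71 in Lin28b loss (-2.16 ± 0.09).

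**Figure D2:**
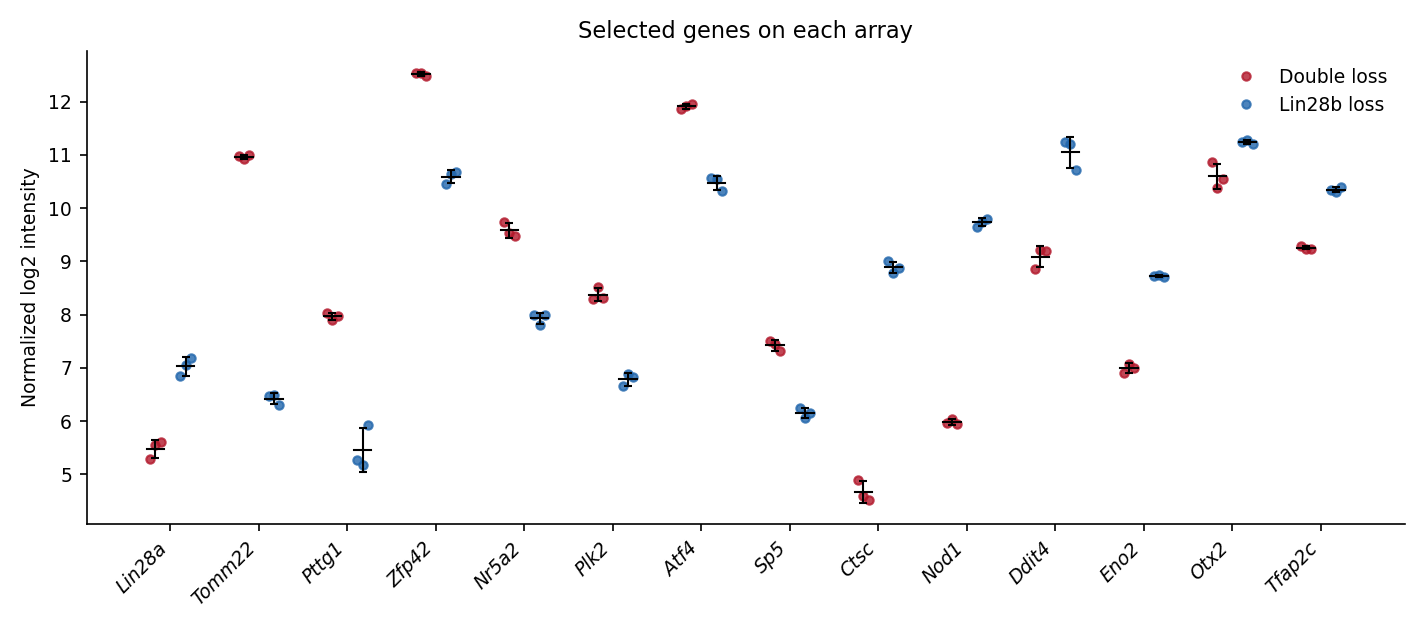
Normalized log2 intensity of 14 genes on each of the 3 double-loss arrays (red, left of each pair) and the 3 Lin28b-loss arrays (blue, right), with the mean and SD in black. The groups do not overlap for any gene shown, from Lin28a (means 5.48 and 7.03) to Tfap2c.

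Pluripotency genes went both ways. Of 24 measured naive genes 8 rose and 5 fell (median 0.04), and under median scaling 6 rose and 0 fell. Zfp42 (Rex1), a zinc finger marker of naive cells, gave 12.54, 12.54 and 12.48 in double loss and 10.46, 10.64 and 10.68 in Lin28b loss, a rise of 1.92 ± 0.11 (3.80-fold, adjusted p = 1.24e-07). Nr5a2, a nuclear receptor that can stand in for Oct4 in reprogramming, gave 9.75, 9.53 and 9.47 in double loss and 7.99, 7.81 and 7.99 in Lin28b loss (1.65 ± 0.13). Lifr, the receptor subunit for Lif, rose by 0.83 ± 0.12, with 6.20, 5.97 and 5.76 in double loss and 5.05, 5.18 and 5.23 in Lin28b loss. Klf2 and Klf4, Kruppel-like factors of the same network, fell by 0.51 ± 0.11 and 0.46 ± 0.13, and Klf4 lost its call without double-loss array 2. Without double-loss array 3, 5 naive genes rose.

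Of 19 general pluripotency genes 4 rose (21.1%) and 3 fell (15.8%), Lin28a among the falls, and under median scaling 2 rose and 1 fell. Pou5f1 (Oct4) read 12.63, 12.55 and 12.61 in double loss and 12.77, 12.85 and 12.91 in Lin28b loss (-0.25 ± 0.10, adjusted p = 0.0627). Nanog read 12.77 on the brightest double-loss array and 11.91 and 11.94 on the others, against 12.10, 12.03 and 12.01 in Lin28b loss (0.16 ± 0.27, adjusted p = 0.689). Sox2 fell by 0.43 ± 0.14, and lost its call without double-loss array 2 or 3 or Lin28b-loss array 1 or 3. Tdgf1 (Cripto), the Nodal co-receptor, fell by 0.73 ± 0.14. Counts of rises in this group were 2 without double-loss array 1 or without any 1 of the Lin28b-loss arrays. Of 11 primed genes 2 rose and 5 fell (median -0.36), and under median scaling none was called. Otx2, a homeobox factor that directs the exit from naive pluripotency, gave 10.86, 10.38 and 10.55 in double loss and 11.24, 11.29 and 11.21 in Lin28b loss (-0.65 ± 0.13, adjusted p = 0.00147). Dnmt3b, a DNA methyltransferase of the primed state, fell by 0.60 ± 0.10, and Etv5, an ETS factor downstream of FGF, rose by 0.52 ± 0.10, while its other entry gave 5.64, 5.20 and 5.55 in double loss and 5.76, 5.56 and 5.84 in Lin28b loss.

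Reported let-7 targets were taken as a list, and their transcripts were not searched for sites of the seed printed above. Of 25 measured, 4 rose (16%) and 6 fell (24.0%), close to the 17.3% and 20.6% of all tested genes, with a median of -0.05. Nr6a1 (GCNF), a nuclear receptor that represses Oct4 on differentiation, gave 7.85, 8.05 and 8.08 in double loss and 9.07, 8.96 and 8.94 in Lin28b loss (-1.0 ± 0.09, adjusted p = 4.7e-06). Arid3a and Arid3b, AT-rich DNA-binding factors, fell by 0.95 ± 0.11 and 0.66 ± 0.12. Insr, the insulin receptor, gave 7.41, 7.07 and 7.18 in double loss and 8.20, 8.01 and 7.95 in Lin28b loss (-0.84 ± 0.12), though its other entry was above background in neither group. Against these, Cdc25a, the phosphatase that activates Cdk2, gave 9.61, 9.37 and 9.38 in double loss and 8.5, 8.5 and 8.52 in Lin28b loss (0.95 ± 0.09). Under median scaling 1 rose and 2 fell. With any 1 array left out 1 or 2 rose, and 5 or 6 fell.

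**Figure D3:**
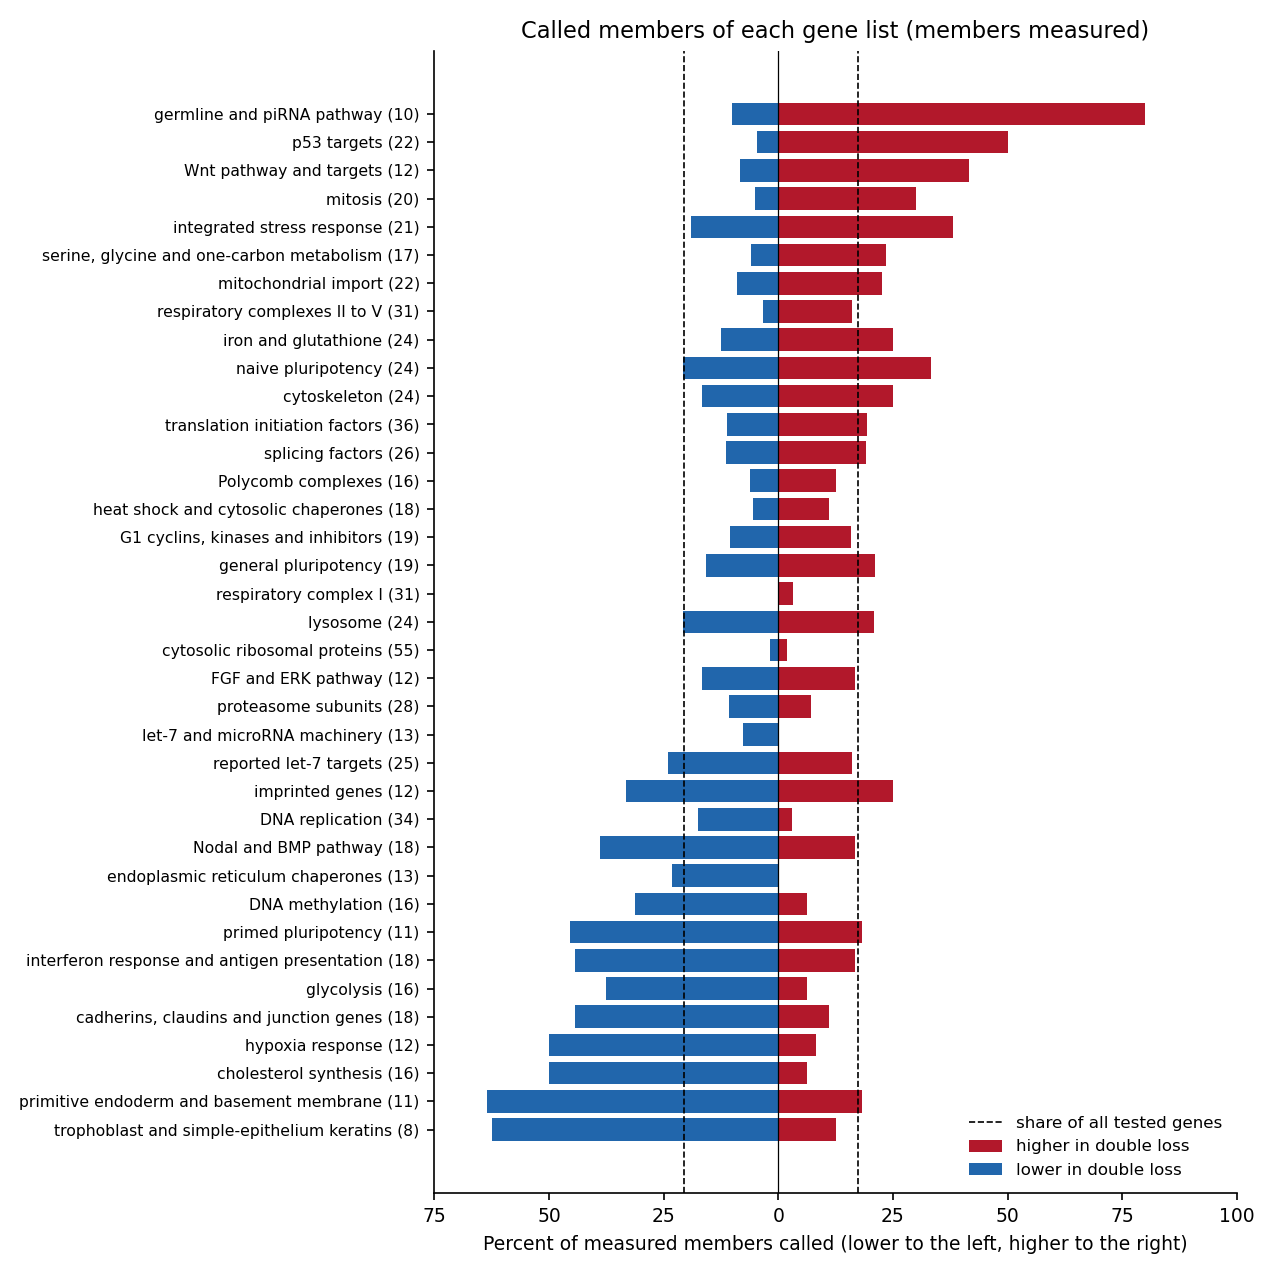
Percent of measured members of each gene list that were higher (red, to the right) and lower (blue, to the left) in double loss, for lists with at least 8 measured members, with the number measured in parentheses. Dashed lines mark the share of all tested genes, 17.3% higher and 20.6% lower.

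Of 12 measured Wnt pathway genes and targets 5 rose (41.7%) and 1 fell, with a median of 0.30, and under median scaling 3 rose. The rises were negative-feedback targets and pathway members. Axin2, a scaffold of the complex that degrades beta-catenin, gave 9.71, 9.29 and 9.28 in double loss and 8.26, 8.30 and 8.54 in Lin28b loss (1.06 ± 0.14, adjusted p = 0.000103). Sp5, a direct beta-catenin target, gave 7.51, 7.45 and 7.31 in double loss and 6.25, 6.05 and 6.16 in Lin28b loss (1.27 ± 0.26), and Notum, an enzyme that inactivates Wnt proteins, rose by 1.01 ± 0.22 and was higher by its other entry too. Fzd10, a receptor, rose by 0.44 ± 0.11. Porcn, which acylates Wnt proteins for secretion, fell by 0.49 ± 0.11, with 1 double-loss array above background.

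Members of the Nodal and BMP pathway moved both ways. Of 18 measured 3 rose (16.7%) and 7 fell (38.9%) (median -0.26), and under median scaling 0 rose and 3 fell. Smad3, a transducer of Nodal, gave 6.81, 7.0 and 6.83 in double loss and 8.05, 7.82 and 8.06 in Lin28b loss (-1.10 ± 0.09). Id1, a BMP target that blocks differentiation factors, gave 7.47, 7.92 and 7.70 in double loss and 8.66, 8.75 and 8.92 in Lin28b loss (-1.08 ± 0.15). The groups did not overlap for either gene. Lefty2, a Nodal antagonist, fell by 0.88 ± 0.19 and the ligand gene Bmp4 by 0.67 ± 0.10, while Nodal itself rose by 0.36 ± 0.11 (11.4, 11.31 and 11.46 in double loss, 10.98, 11.13 and 10.97 in Lin28b loss). The other transducers were divided: Smad1 fell by 0.44 ± 0.09, and Smad2 and Smad5 rose by 0.43 ± 0.13 and 0.46 ± 0.09. The Id1 relatives Id2 and Id3 were not called. Nodal lost its call without double-loss array 1 or 3 or Lin28b-loss array 1 or 3, and Smad2 without double-loss array 2 or Lin28b-loss array 1. Without Lin28b-loss array 1, 1 member rose and 8 fell. Of 12 FGF and ERK genes 2 rose and 2 fell, and under median scaling 1 rose and 2 fell, with Ier3, an immediate early gene, at 9.94, 9.96 and 10.09 in double loss and 11.34, 11.06 and 11 in Lin28b loss (-1.14 ± 0.12). Spry4, an inhibitor of the pathway, fell by 0.68 ± 0.15, with 1 double-loss array above background.

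Targets of p53 rose in larger share than all genes. Of 22 measured 11 rose (50.0%) and 1 fell, with a median of 0.31. Plk2, a stress-induced kinase, gave 8.30, 8.51 and 8.31 in double loss and 6.65, 6.88 and 6.82 in Lin28b loss (1.59 ± 0.14, adjusted p = 3.7e-06). Cdkn1a (p21), which inhibits cyclin-dependent kinases, gave 10.66, 10.71 and 10.80 in double loss and 9.70, 9.59 and 9.58 in Lin28b loss (1.10 ± 0.10). Aen, a nuclease of apoptosis, rose by 1.12 ± 0.09, with the same direction in its other entry. Ddb2, a DNA damage sensor, fell by 0.57 ± 0.09, and Trp53 itself was not called (-0.06 ± 0.09, adjusted p = 0.623). The count of rises was 6, 5 and 6 without Lin28b-loss arrays 1, 2 and 3 in turn, and 3 under median scaling.

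The integrated stress response list was divided. Of 21 measured 8 rose and 4 fell, with a median of 0.12, and under median scaling 2 rose and 2 fell. Atf4, the transcription factor at its centre, gave 11.86, 11.92 and 11.96 in double loss and 10.56, 10.54 and 10.32 in Lin28b loss (1.44 ± 0.09, 2.71-fold). Atf5, a related factor of mitochondrial stress, rose by 0.88 ± 0.08, and Herpud1, a factor of protein degradation at the endoplasmic reticulum, by 0.57 ± 0.11. Their targets were not uniform. Chac1, which degrades glutathione, fell by 0.64 ± 0.17 and Gpt2, an alanine transaminase, by 0.66 ± 0.09. Asns, Trib3 and Ddit3 were not called. Gpt2 lies on chromosome 8, whose genes were lower as a whole in double loss (below). Falls numbered 2 without Lin28b-loss array 2, and Chac1 lost its call there. Of 13 endoplasmic reticulum chaperones 0 rose and 3 fell, Pdia4 among them by 0.58 ± 0.11, and of 18 heat shock and cytosolic chaperones 2 rose and 1 fell, with Hsph1 at 0.82 ± 0.14. Under median scaling none of the 13 was called, and 1 of the 18 rose. The chaperones of the endoplasmic reticulum that fell numbered 1 without Lin28b-loss array 1, and Hsp90ab1, the cytosolic fall, lost its call without double-loss array 2 or 3 or Lin28b-loss array 3.

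Genes of the hypoxia response fell in larger share than all genes. Of 12 measured 6 fell (50.0%) and 1 rose, with a median of -0.52, and under median scaling 3 fell and 1 rose. Ddit4 (REDD1), an inhibitor of mTORC1 that the stress list holds too, gave 8.86, 9.22 and 9.19 in double loss and 11.24, 11.20 and 10.72 in Lin28b loss, and fell by 1.97 ± 0.17 (3.90-fold, adjusted p = 3.2e-06). Egln3 and Egln1, the prolyl hydroxylases that mark HIF for decay, were both lower. Egln3 gave 6.41, 6.55 and 6.57 in double loss, where no array passed detection, and 7.77, 7.45 and 7.26 in Lin28b loss. Its fitted fall of 1.98-fold is no bound. Egln1 gave 5.61, 5.25 and 5.38 in double loss and 6.20, 6.13 and 6.21 in Lin28b loss (-0.77 ± 0.12). Pdk1, the kinase that shuts pyruvate dehydrogenase, fell by 0.70 ± 0.08, and Ankrd37 by 0.55 ± 0.12. P4ha1, a collagen prolyl hydroxylase, fell by 0.59 ± 0.20, and lost its call without double-loss array 2 or 3 or without Lin28b-loss array 1 or 2. Kdm3a, a histone demethylase induced by HIF, moved the other way, at 11.85, 11.48 and 11.40 in double loss and 10.89, 10.80 and 10.99 in Lin28b loss (0.68 ± 0.13), and its other entry was higher too. Hif1a itself was not called (-0.02 ± 0.24, adjusted p = 0.96). Egln1 and Ankrd37 lie on chromosome 8, whose genes were lower as a whole in double loss (below).

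ACGTG is a form of the core that HIF binds, and other forms were neither searched for nor marked. The promoters of 3 of the fallen genes show ACGTG in capitals, on either strand (ACGTG or CACGT). They span 250 bases before and 50 after the start (RefSeq, GRCm38.p6). Egln3 lies at chr12:54203825-54204124 (minus strand), Ddit4 at chr10:59951721-59952020 (minus strand) and Ankrd37 at chr8:45999801-46000100 (minus strand), each printed 5′ to 3′ along the gene.
Egln3: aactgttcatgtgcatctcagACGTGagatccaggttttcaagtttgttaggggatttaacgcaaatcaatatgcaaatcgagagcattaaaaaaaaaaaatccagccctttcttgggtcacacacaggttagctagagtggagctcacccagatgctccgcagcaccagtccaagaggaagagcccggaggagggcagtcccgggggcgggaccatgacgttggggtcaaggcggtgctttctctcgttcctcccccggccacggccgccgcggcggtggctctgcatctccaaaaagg
Ddit4: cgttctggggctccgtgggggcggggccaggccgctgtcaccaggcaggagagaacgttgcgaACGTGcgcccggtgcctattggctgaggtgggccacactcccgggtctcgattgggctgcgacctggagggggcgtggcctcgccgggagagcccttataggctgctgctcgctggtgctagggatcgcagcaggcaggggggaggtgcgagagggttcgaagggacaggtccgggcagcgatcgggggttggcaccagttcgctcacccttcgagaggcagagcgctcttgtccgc
Ankrd37: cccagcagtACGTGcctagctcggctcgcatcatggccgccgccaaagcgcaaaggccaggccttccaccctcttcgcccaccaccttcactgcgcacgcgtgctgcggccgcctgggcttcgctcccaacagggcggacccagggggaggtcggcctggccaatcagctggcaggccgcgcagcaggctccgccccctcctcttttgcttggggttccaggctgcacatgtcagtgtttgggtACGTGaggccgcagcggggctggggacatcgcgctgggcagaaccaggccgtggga
Egln3 and Ddit4 hold 1 match each and Ankrd37 holds 2. Of the 6 hypoxia genes that fell 5 held this form of the core, all but Pdk1, and 2 of the 3 other hypoxia genes with a listed promoter did. This form was present in 19.6% of 32851 promoters of this length and in 30.1% of the 6171 tested genes with one. It overlaps the E-box CACGTG, and a match in these letters shows no binding.

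Of 16 measured glycolysis genes 6 fell (37.5%) and 1 rose, and under median scaling 1 fell and 0 rose. Eno2, the neuronal enolase and a HIF target, gave 6.90, 7.08 and 7.0 in double loss and 8.73, 8.74 and 8.71 in Lin28b loss (-1.73 ± 0.15, 3.32-fold lower, adjusted p = 2.7e-06). Slc2a1, the main glucose transporter, gave 13.04, 12.57 and 12.55 in double loss and 13.67, 13.51 and 13.47 in Lin28b loss (-0.83 ± 0.14). The rise, Pfkm (0.30 ± 0.10), lost its call without any 1 array. Ldha, Gapdh, Pkm, Aldoa and Eno1 were not called. Of 16 cholesterol synthesis genes 8 fell (50.0%) and 1 rose, with a median of -0.35, and none was called under median scaling. Ebp, a sterol isomerase, fell by 0.57 ± 0.09, and Mvd, a decarboxylase of the mevalonate pathway on chromosome 8, by 0.54 ± 0.10. The falls numbered 5 without double-loss array 1 or without Lin28b-loss array 2 or 3. In serine and one-carbon metabolism 4 of 17 genes rose and 1 fell, and under median scaling 2 rose and 0 fell, with Cbs, which makes cystathionine, at 7.90, 7.81 and 7.82 in double loss and 6.93, 6.92 and 7.06 in Lin28b loss (0.88 ± 0.12).

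Among genes of mitochondrial proteins, called members were few in respiratory complex I. Of its 31 measured genes 1 rose (3.23%, Ndufb5, 0.52 ± 0.12) and none fell, against 17.3% and 20.6% of all tested genes. Of 31 genes of complexes II to V 5 rose (16.1%), close to the share of all genes, and 1 fell (3.23%), below that share. Under median scaling none of these was called, and in complexes II to V 2 rose without double-loss array 1 or 3 or Lin28b-loss array 3. Of 22 import genes 5 rose (22.7%) and 2 fell (9.09%), and under median scaling 4 rose and 0 fell. Beside Tomm22, Timm13, a carrier of the intermembrane space, was at least 1.51-fold higher, and Timm10, of the same chaperone family, gave 9.44, 9.79 and 9.79 in double loss and 9.04, 9.17 and 8.95 in Lin28b loss (0.62 ± 0.12). Timm44, which tethers the import motor and lies on chromosome 8, fell by 0.56 ± 0.12. Tomm40, Tomm70a and Timm50 of the same machinery were not called. Rises numbered 3 without double-loss array 3 or without Lin28b-loss array 1 or 2.

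Few ribosomal protein genes differed: of 55 measured 1 rose and 1 fell, and under median scaling 2 rose and 0 fell. Rpl29, a protein of the large subunit, gave 12.89, 13.15 and 13.14 in double loss and 11.25, 11.30 and 11.24 in Lin28b loss (1.80 ± 0.09, 3.47-fold). Ribosomal protein genes have many near-identical pseudogenes, whose transcripts a probe can also read. Of 36 initiation factors 7 rose and 4 fell, and under median scaling 2 rose and 2 fell. Eif4e, which binds the cap, was at least 1.53-fold lower, with 4.69, 4.92 and 4.69 in double loss and 6.27, 6.14 and 6.35 in Lin28b loss. Eif3l, a subunit of the scaffold eIF3, gave 13.84, 13.62 and 13.57 in double loss and 12.93, 12.98 and 13.07 in Lin28b loss (0.69 ± 0.10). Eif2s3y, the Y-linked copy of a subunit of eIF2, was above background on all 6 arrays and gave 6.12, 5.92 and 6.27 in double loss and 7.32, 7.33 and 6.83 in Lin28b loss (-1.06 ± 0.14). Falls numbered 2 without double-loss array 2 or 3 or without any 1 of the Lin28b-loss arrays. Of 28 proteasome subunits 2 rose and 3 fell, and under median scaling 2 rose and 1 fell, with Psmb5, a catalytic subunit, at 10.55, 10.73 and 10.84 in double loss and 9.36, 9.52 and 9.42 in Lin28b loss (1.27 ± 0.11). Falls among them numbered 1 without double-loss array 1 or Lin28b-loss array 2 or 3.

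Germline genes rose in the largest share of the lists shown. Of 10 measured 8 rose and 1 fell (median 0.52), and under median scaling 2 rose and 1 fell. Tex19.1, which restrains retrotransposons in germ and stem cells, gave 11.36, 11.19 and 11.35 in double loss and 10.14, 9.87 and 9.85 in Lin28b loss (1.35 ± 0.11, 2.54-fold). Piwil2, a piRNA-binding Piwi protein, rose by 0.59 ± 0.10, Tdrd12, a Tudor protein of the same pathway, by 0.51 ± 0.09, and Syce3, of the synaptonemal complex, by 0.70 ± 0.15. Taf7l, a germ cell transcription factor subunit, was at least 1.45-fold higher. Tex14, which keeps the bridges between germ cells open, was the fall, at 7.83, 7.52 and 7.40 in double loss and 8.92, 8.74 and 8.69 in Lin28b loss (-1.20 ± 0.15). The list has 32 genes on the array, and 22 of them were not above the detection limit needed for a test.

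Of 8 measured trophoblast genes and simple-epithelium keratins 5 fell (62.5%) and 1 rose, with a median of -0.77, and under median scaling 4 fell. Tfap2c, a factor of trophoblast and germ cells, gave 9.29, 9.24 and 9.24 in double loss and 10.35, 10.31 and 10.39 in Lin28b loss (-1.09 ± 0.08). Eomes, a T-box factor, gave 5.37, 5.16 and 5.23 in double loss, with 1 array above background, and 6.65, 6.31 and 6.06 in Lin28b loss (-1.09 ± 0.15). Krt8, a keratin, and Rhox9, an X-linked homeobox gene, fell by 0.72 ± 0.09 and 0.89 ± 0.19, and Krt18, the partner of Krt8, was not called (-0.30 ± 0.13, adjusted p = 0.0987). Elf5, which defines trophoblast stem cells, was above background on none of the 6 arrays. Of 11 genes of primitive endoderm and basement membrane 7 fell and 2 rose, and under median scaling 2 fell and 1 rose. Sparc, a matrix glycoprotein, gave 9.28, 9.29 and 9.34 in double loss and 10.18, 10.24 and 10.25 in Lin28b loss (-0.92 ± 0.08), and Serpinh1, the collagen chaperone, and Lamc1, a laminin chain, fell by 0.86 ± 0.09 and 0.62 ± 0.09. Gata4, Gata6 and Sox17, which define primitive endoderm, were above background on none of the 6 arrays. Falls numbered 4 without double-loss array 2 or 3 or without Lin28b-loss array 1. The other lineage lists held few measured genes: of 3 mesoderm genes Evx1 rose and Eomes and Gsc fell, the neuroectoderm marker Nes fell by 0.52 ± 0.12, of 2 fibroblast genes Acta2 rose, and the only measured gene of the 2-cell stage, Zscan4c, rose. Evx1, above background on no Lin28b-loss array, was at least 1.32-fold higher. It lost its call without double-loss array 2 or 3 or any 1 Lin28b-loss array. Zscan4c (0.61 ± 0.21) lost its call without double-loss array 1 or 3 or Lin28b-loss array 1 or 2.

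Cell junction genes were called lower more often than higher. Of 18 cadherins, claudins and other junction genes 8 fell (44.4%) and 2 rose, and under median scaling 2 fell and 0 rose. Jup, or plakoglobin, which links cadherins to the cytoskeleton, was at least 1.20-fold lower, with 4.82, 4.85 and 4.51 in double loss and 5.88, 5.86 and 5.95 in Lin28b loss. Cdh1, or E-cadherin, which holds stem cell colonies together and lies on chromosome 8, gave 9.61, 9.77 and 9.66 in double loss and 10.35, 10.38 and 10.25 in Lin28b loss (-0.65 ± 0.09). Cldn3 and Cldn4, tight junction claudins, fell by 0.88 ± 0.11 and 0.80 ± 0.18, and Cldn3 was above background on 1 double-loss array. Falls numbered 5 without double-loss array 2 or 3 or without Lin28b-loss array 2. Of 24 cytoskeletal genes 6 rose and 4 fell, with Tubb6, a tubulin, at 0.71 ± 0.13 and Myh9, a nonmuscle myosin, at -0.63 ± 0.10, and under median scaling 2 rose and 0 fell.

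Antigen presentation genes were divided within the major histocompatibility complex of chromosome 17. Of 18 interferon and antigen presentation genes 3 rose and 8 fell, and under median scaling 2 rose and 4 fell. H2-Q6, a nonclassical class I gene, gave 7.68, 7.94 and 7.90 in double loss and 5.73, 5.8 and 5.55 in Lin28b loss (2.15 ± 0.11), and its other entry gave 7.53, 7.86 and 7.73 in double loss and was above background on no Lin28b-loss array. H2-K1, a classical class I gene, gave 7.07, 7.48 and 7.43 in double loss and 5.51, 5.84 and 5.70 in Lin28b loss (1.65 ± 0.13). H2-D1, the other classical gene, fell by 0.62 ± 0.13, and H2-Bl was at least 1.82-fold lower. Class I genes are near-identical in sequence and vary between strains, so a probe can read more than 1 of them or miss an allele. Irf1, an interferon-induced factor, and Psmb10, a subunit of the immunoproteasome on chromosome 8, fell by 0.88 ± 0.08 and 0.77 ± 0.17. Falls numbered 5 without Lin28b-loss array 3. All 3 measured Ly6 antigens differed: Ly6e gave 11.48, 11.24 and 11.27 in double loss and 8.95, 9.08 and 9.21 in Lin28b loss (2.25 ± 0.16), Ly6g6c rose by 1.19 ± 0.13, and Ly6a (Sca-1) fell by 1.25 ± 0.12.

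Of 34 DNA replication genes 6 fell and 1 rose, and none was called under median scaling. Pold3, a subunit of DNA polymerase delta, and Pole, of polymerase epsilon, fell by 0.53 ± 0.08 and 0.51 ± 0.10, while the Mcm helicase genes Mcm2, Mcm3, Mcm4, Mcm5, Mcm6 and Mcm7 were not called. Of 20 mitosis genes 6 rose (30.0%) and 1 fell, and under median scaling 2 rose and 1 fell. Pttg1, above, was the largest of these rises. Kif11, the spindle kinesin, gave 9.96, 9.79 and 9.70 in double loss and 8.84, 8.61 and 9.05 in Lin28b loss (0.98 ± 0.14). Aurka, a spindle kinase, gave 12.16 on the brightest double-loss array and 11.59 and 11.55 on the others, against 10.90, 10.89 and 10.89 in Lin28b loss (0.87 ± 0.23). Kif23, a kinesin of cytokinesis, fell by 0.66 ± 0.17. Of 19 G1 regulators 3 rose and 2 fell, and under median scaling 2 rose and 1 fell. Cdkn1a, above, was the largest rise, and the falls were Cdkn1c and E2f1, a factor of S-phase entry, at 9.92, 9.64 and 9.80 in double loss and 10.71, 10.73 and 10.66 in Lin28b loss (-0.92 ± 0.13).

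Of 12 imprinted genes 3 rose and 4 fell, and under median scaling 1 rose and 2 fell. Phlda2, which limits placental growth, gave 9.09, 9.75 and 9.73 in double loss and 11.02, 11.02 and 11.03 in Lin28b loss (-1.49 ± 0.16, 2.82-fold lower). Igf2, a fetal growth factor gene, and Cdkn1c, an inhibitor of cyclin-dependent kinases, both on distal chromosome 7 like Phlda2, fell by 0.85 ± 0.16 and 0.79 ± 0.18. Ndn and Mest rose by 0.65 ± 0.12 and 0.54 ± 0.15, and Mest lost its call without Lin28b-loss array 2. Of 16 DNA methylation genes 5 fell and 1 rose, and under median scaling 3 fell and 1 rose. The rise was Gadd45a, a damage-induced protein linked to demethylation, at 9.20, 8.91 and 9.12 in double loss and 7.54, 7.55 and 7.42 in Lin28b loss (1.57 ± 0.12, 2.98-fold). Apobec1, a cytidine deaminase, and Mbd4, a repair glycosylase, fell by 0.88 ± 0.14 and 0.67 ± 0.10. Of 16 Polycomb genes 2 rose and 1 fell, and under median scaling 1 rose and 0 fell, with Cbx7, a chromodomain subunit of PRC1 in stem cells, at 10.17, 9.94 and 9.89 in double loss and 10.88, 10.79 and 10.96 in Lin28b loss (-0.88 ± 0.09).

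Among 26 splicing factors 5 rose and 3 fell, and under median scaling 1 rose and 2 fell. Esrp1, which sets epithelial splicing, gave 7.89, 7.68 and 7.68 in double loss and 9.53, 9.36 and 9.35 in Lin28b loss (-1.66 ± 0.15, 3.17-fold lower). Rbfox2, a splicing factor that regulates exons in stem cells, fell by 1.03 ± 0.10, and Srsf3, a serine-arginine factor, rose by 1.18 ± 0.20. Rises numbered 3 without double-loss array 1 or without Lin28b-loss array 1 or 3. Of 24 iron and glutathione genes 6 rose and 3 fell, with Gpx3 at 0.73 ± 0.12 and Hmox1, on chromosome 8, at -0.64 ± 0.13, and of 24 lysosomal genes 5 rose and 5 fell, with Ctsc, above, the largest. Under median scaling 2 iron and glutathione genes rose and 0 fell, and 2 lysosomal genes rose and 2 fell. Scarb2, a lysosomal membrane protein, rose by 0.75 ± 0.11, and Atp6v1h, a subunit of the proton pump, gave 10.90, 11.05 and 10.94 in double loss and 11.83, 11.86 and 11.94 in Lin28b loss (-0.91 ± 0.10).

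The difference between double loss and Lin28b loss was set against that between Lin28a loss and wild type, which lies within the other chip and shares no sample with it. Each is a difference between lines, so line and Lin28a loss cannot be told apart in either. The interaction, the first difference less the second, was called for 3391 genes (36.9%), and 2176 of these were also called between double loss and Lin28b loss. Lin28a loss against wild type called 3227 genes (35.1%). A total of 1542 genes were called in both, 44.3% of those called between double loss and Lin28b loss and 47.8% of those called between Lin28a loss and wild type, and of these 793 moved the same way and 749 the opposite way. Across the 9185 genes, which are not independent replicates, the differences correlated with a Pearson r of 0.012.

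Calr4 was lower in both settings, with 4.61, 4.52 and 4.63 in double loss and 7.29, 7.31 and 7.25 in Lin28b loss, and 4.75, 4.79 and 4.71 in Lin28a loss and 8.01, 7.48 and 7.26 in wild type. It was above background on no array of double loss or Lin28a loss, so the sizes of its falls cannot be compared. Nr6a1, above background on all 12 arrays, fell by 1.0 in double loss, and stood at 8.57, 8.45 and 8.38 in Lin28a loss and 9.47, 9.61 and 9.57 in wild type (interaction 0.09 ± 0.13, adjusted p = 0.63). Zfp42, Nr5a2, Sp5 and Ly6e, chosen after their values were seen, had opposite signs in the 2 settings. Zfp42, which rose in double loss, gave 10.15, 10.37 and 10.07 in Lin28a loss and 12.08, 12.42 and 12.40 in wild type (interaction 4.03 ± 0.16, adjusted p = 2.81e-09). Nr5a2, Sp5 and Ly6e had interactions of 3.01 ± 0.18, 3.58 ± 0.37 and 3.91 ± 0.23. Other members of the same lists were divided. Of the Wnt list, Axin2 (1.06 and -1.6), Fzd10 (0.44 and -0.96) and Notum (1.01 and -0.51) also had differences of opposite sign. The -0.51 of Notum was not called. Porcn had differences of -0.49 and -0.40 in the 2 settings, of the same sign. Ly6g6c had differences of 1.19 and 0.45, also of the same sign. Klf2 (-0.51 and -0.23), Ly6a (-1.25 and -0.18) and Lifr (0.83 and 0.03) were not called between Lin28a loss and wild type. The interaction was called for Ly6a, Ly6g6c and Lifr and not for Klf2. The lines also differed in Eif2s3y, which was above background on every array of double loss and Lin28b loss and on none of Lin28a loss and wild type. Otx2 was lower with Lin28a lost in both settings, but by less in double loss (interaction 2.22 ± 0.18). Lin28a itself fell by less between double loss and Lin28b loss than between Lin28a loss and wild type (interaction 0.76 ± 0.16, adjusted p = 0.00258). Its means were 5.48 in double loss and 5.66 in Lin28a loss, near the weakest signals above background. They were 7.03 in Lin28b loss and 7.97 in wild type. The sizes of its 2 falls are therefore limited by background.

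**Figure D4:**
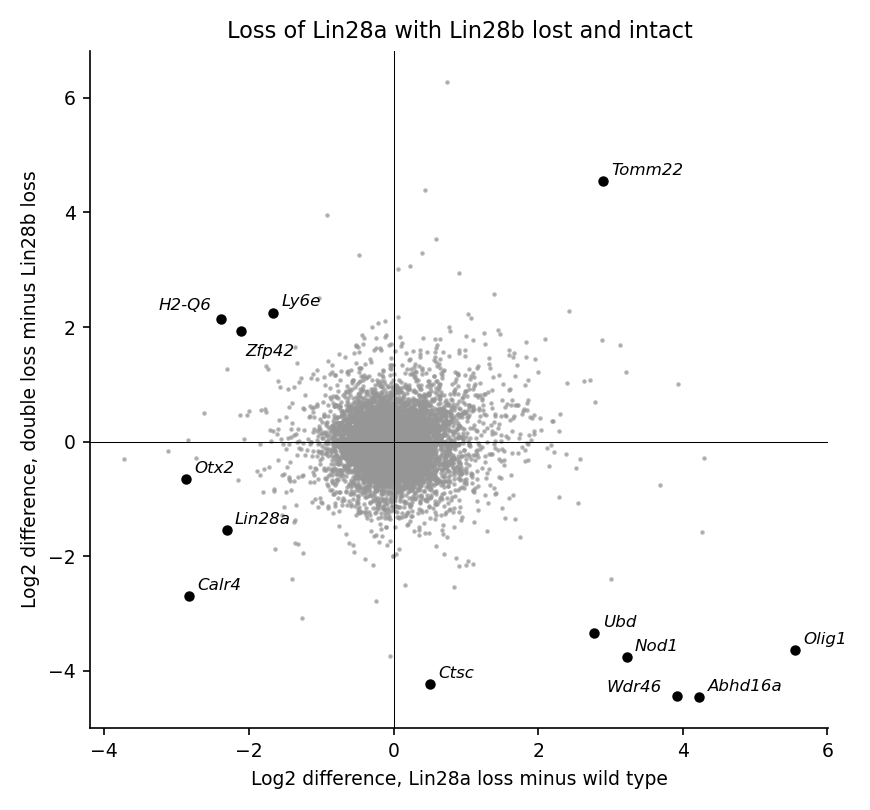
Log2 difference of each tested gene between double loss and Lin28b loss (vertical axis) against that between Lin28a loss and wild type (horizontal axis). The cloud has no slope (Pearson r 0.012), with Lin28a, Otx2 and Calr4 at the lower left, Zfp42, Ly6e and H2-Q6 at the upper left, and Olig1, Abhd16a, Wdr46, Nod1 and Ubd the lower right.

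The chromosome on which a gene lies was related to its difference, a pattern looked for after the values were seen. The file gave a chromosome from 1 to 19 or X for 5962 tested genes. The 348 on chromosome 8 had a median difference of -0.34, a 1.27-fold lower signal in double loss, with 52.6% called lower and 4.89% higher. Under median scaling this median was -0.22, and those of the other chromosomes ran from 0.07 to 0.25. Genes of the other chromosomes had a median of 0.01, with 17.9% lower and 18.9% higher, and the medians of these 19 chromosomes ran from -0.05 to 0.14. On single arrays the median deviation of chromosome 8 genes from their 12-array mean was -0.22, -0.16 and -0.18 in double loss and 0.14, 0.16 and 0.18 in Lin28b loss. It was 0.17, 0.18 and 0.09 in Lin28a loss and -0.11, -0.08 and -0.09 in wild type. Klhl26, Egln1, Ankrd37, Cdh1, Klf2, Insr and Gpt2 lie on chromosome 8, and the part of the chromosome's shift in their falls was not tested. Zfp42 and Herpud1 lie there too and rose.

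**Figure D5:**
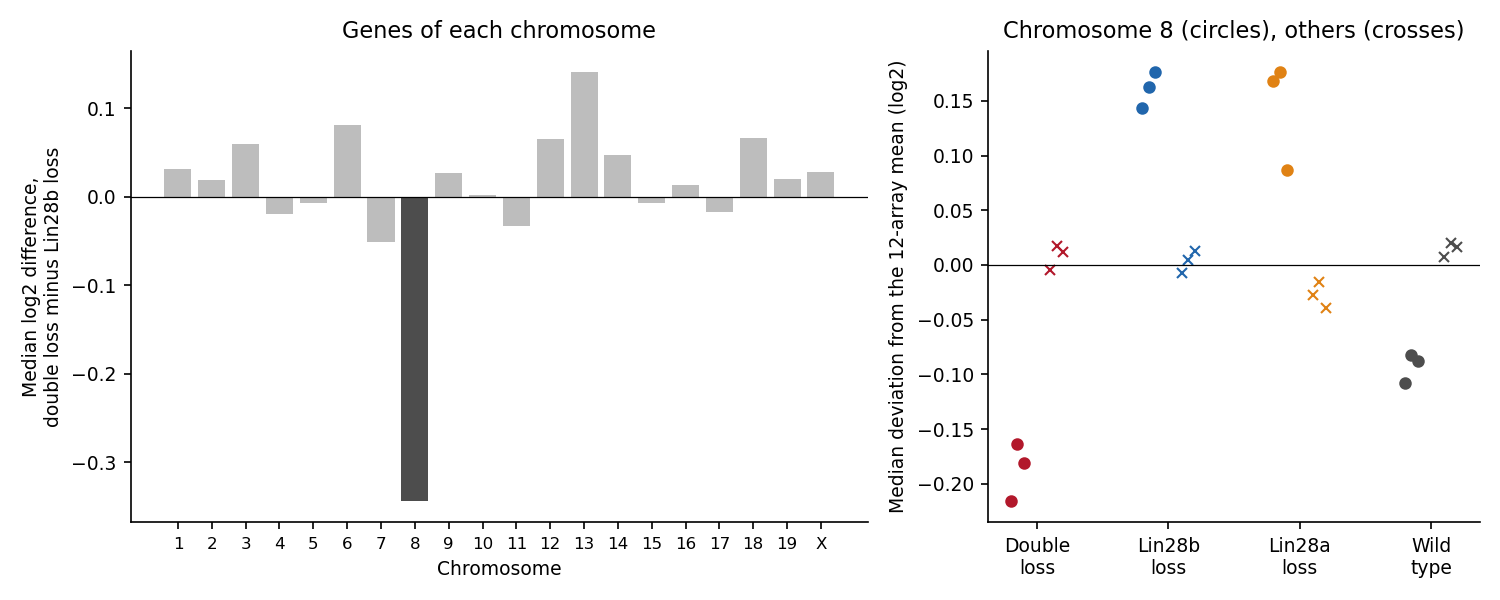
Left, the median log2 difference, double loss minus Lin28b loss, of the tested genes of each chromosome; chromosome 8 stands at -0.34. Right, the median deviation from the 12-array mean on each array for chromosome 8 genes (circles) and genes of all other chromosomes (crosses), where chromosome 8 is low in double loss and wild type and high in Lin28b loss and Lin28a loss.

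Some of the largest falls were near each other in the RefSeq gene order, which was looked at after the values were seen. Each stretch below was bounded by genes that fell, so its count of falls was partly fixed by that choice. Whether falls cluster was not tested. On chromosome 7, Alg8 and Myo7a bound a stretch of 7 tested genes that holds Pak1. Of the 7 genes 4 fell, Alg8, Pak1 and Myo7a among them, and none rose. Alg8, a glucosyltransferase of protein glycosylation, gave 6.50, 6.48 and 6.60 in double loss and 8.18, 8.07 and 8.13 in Lin28b loss. Ctsc and Picalm bound another stretch of 6 tested genes on this chromosome, where Ctsc and Picalm fell, 2 others rose and 2 were not called. On chromosome 17, Wdr46 and Ubd lie further apart and bound a stretch of 81 tested genes that holds Abhd16a and the class I genes. There 15 rose, 24 fell and 42 were not called, and 11 differed by at least 2-fold. Of all tested genes 17.3% rose, 20.6% fell and 5.11% differed by at least 2-fold. The rises were close to their share, and the falls and 2-fold differences, which include the chosen ends, were above theirs.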

How the data were processed

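RNA from 12 samples in 4 groups of 3 was hybridised to Illumina WG-6 arrays. Per the file headers, the deposited gene-level table holds mean bead intensities without normalization or background subtraction, and a detection p-value for each. The same headers give the software as GSGX 1.9.0. Another 60 columns with values for single samples stayed out of the work. The authors' series matrix intensities, 45281 probes, served only as an alternative.

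Background was corrected by normexp from the detection p-values (fitted on the 23306 genes with a single probe, offset 16), followed by log2 and quantile normalization over 12 arrays. The brightest entry of each symbol was kept. limma 3.58.1 in R 4.3.3 (lmFit, eBayes) fitted all 4 groups and 3 comparisons, and Benjamini-Hochberg adjustment ran over 9185 genes. Testing needed a detection p under 0.01 on each of the 3 arrays of double loss or of Lin28b loss. Names came from RefSeq (18045 entries by identifier, 2067 by symbol, 2675 by synonym), and 8067 kept the file's name.

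Named genes were the 15 largest called rises and 15 largest falls (detected on all 3 arrays of the higher group, groups not overlapping, no placeholder symbol), of each list up to 5 called members with the largest differences and any past 2-fold, and the 5 largest interactions. Other list members, Alg8 and LOC383308 were named after their values were seen. The comparison and the lists were chosen with earlier results of these data known. Fits were tested on simulated data. Arrays carry no read depth, and 3 arrays per group limit the precision. Same-numbered samples deviated with correlations of 0.179, 0.103 and -0.036, so the numbers were not used as pairs. Some results of the named genes are not reported here.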

Additional observations from a re-analysis of the deposited data

Results flagged for a closer look

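The interaction, the difference of double loss minus Lin28b loss less that of Lin28a loss minus wild type, passed the adjusted limma test for 3391 genes. Among the genes with the largest fitted interactions, Olig1 had an interaction of -9.18, Abhd16a of -8.68, Wdr46 of -8.36, Nod1 of -6.98 and Ubd of -6.12 on the log2 scale. Olig1, Abhd16a, Wdr46 and Ubd were above background on no array of double loss or wild type, and Nod1 on 1 array of wild type, so these fitted values are no measured sizes and give the genes no order. All 5 genes were lower in double loss than in Lin28b loss and higher in Lin28a loss than in wild type. Each of the 4 genotypes is 1 line by its titles, so differences between lines and between genotypes cannot be told apart.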

How the results depend on the processing

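Under median scaling 1203 genes differed (622 higher, 581 lower), and 1167 in the interaction. Array weights gave 5534 and 5204, and the authors' series matrix gave 5963 (3411 higher, 2552 lower), of which 1317 reached 2-fold. The number past 2-fold, 469, was 237 without background correction, 224 with an offset of 50 and 273 among genes above background on all 6 arrays. Under that last filter the other entry of Wdr82 is the one tested, and its difference was -0.34, opposite in sign. The causes of the other changes were not tested. Leaving out 1 array gave 2688 to 3103 genes, 451 to 492 past 2-fold, 2815 to 3344 in the interaction, and -1.65 to -1.44 for Lin28a. Cyclic loess gave 3467 genes, the 6 compared arrays alone 3949, no filter 4082 and detection in any of the 4 groups 3632. With the replicate number as a block 3577 genes differed, 469 of them by 2-fold, and 3504 in the interaction. Genes at background in a group have no measured level there, and their fitted differences are no bounds, unlike the at-least folds given in the report. The chromosome 8 median was -0.22 under median scaling and -0.36 to -0.30 under the other settings run, and these summaries were chosen after seeing the data.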
